A study of Mus musculus with 4 samples.

Results

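The genes described here are 42 heat shock and chaperone genes, cytosolic or nuclear but for 4 mitochondrial ones, that were fixed by symbol and looked up in an expression table of 17519 rows. All 42 symbols were found, in 43 rows, because Hspa14 has 2 gene identifiers. RNA was sequenced from MHC class II positive cells of the spleen of adult mice (C57Bl.6), which are antigen presenting cells isolated with magnetic beads. The day 1 PSA group held 3 libraries of such cells cultured for 24 h in medium containing polysaccharide A (PSA) at 50 µg/ml, a capsule polymer of the gut bacterium Bacteroides fragilis. The day 0 group held 1 library of freshly isolated cells that received no PSA. Cells cultured for 24 h without PSA were not analysed here, so PSA, a day in culture and the preparation of the lone day 0 library cannot be told apart. Nothing states that the 3 day 1 libraries are from separate mice or separate cultures. The p-values therefore reflect only how far these libraries differ, and that spread may be technical.

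Molecular chaperones bind proteins that are not yet folded or have lost their fold. Hsp70 proteins hold short stretches of a client and are driven by J-domain cochaperones and by exchange factors of the Hsp110 class, while Hsp90 acts later on clients such as kinases and steroid receptors, and the ring-shaped CCT chaperonin folds actin and tubulin. Some of these genes are made in every cell at all times (Hspa8, Hsp90ab1, CCT), and others are switched on by heat or other stress through the transcription factor Hsf1 (Hspa1a, Hspa1b, Hsp90aa1, Hspb1, Dnajb1).

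The day 0 library was far shallower than the others. FPKM is a count of fragments scaled for transcript length and library size. From the steps in which low FPKM values rise, the day 1 libraries held an estimated 2993000, 3359000 and 4645000 fragments and the day 0 library 214000. For a 2 kb transcript, a floor of 3 fragments was an FPKM of 0.501, 0.447 and 0.323 at day 1 and of 7.01 at day 0. Protein-coding genes held 80.2% to 83.4% of the summed FPKM at day 1 and 11.5% at day 0. All 4 MHC class II markers were above 0 in every library, with a summed FPKM of 15201 to 18993 at day 1 and 10478 at day 0. Among B cell markers, Pax5 had 158 to 165 at day 1, against 2118 at day 0, while Cd79a, Cd79b and Ms4a1 were higher in every day 1 library. Summed FPKM of 4 dendritic cell markers was 17.96 to 23.3 at day 1 and 227 at day 0, but Siglech held 222 of the day 0 sum, Flt3 was higher at day 1 (5.19 to 5.70, against 2.36) and Zbtb46 was listed at 0 at day 0. Macrophage markers (4) summed to 40.9 to 46.9 at day 1 and 58.2 at day 0 but went both ways, with C1qa at 0.209 to 0.982 at day 1, against 23.2 at day 0, and Cd68 at 19.3 to 28.98, against 8.15. T cell markers (5) summed to 63.2 to 94.9 at day 1 and 92.4 at day 0, with Cd3d at 7.198 to 10.98 at day 1, against 54.5 at day 0, and Cd3e, Cd3g and Cd4 higher in every day 1 library. NK cell markers (3) summed to 6.54 to 8.90 at day 1 and 27.2 at day 0, where Ncr1 was listed at 0. Neutrophil markers (4) summed to 34.8 to 51.3 at day 1 and 13.4 at day 0, where Mpo, S100a9 and Elane were listed at 0. The part of these cell types and of depth in the differences below was not tested. In bulk RNA, fewer cells of a type and less RNA per cell cannot be told apart.

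As a set, the chaperone genes did not move in a single direction. Hsp90aa1, the inducible Hsp90, fell to a mean FPKM of 101 at day 1, against 2547 at day 0, which was the largest fall among them. The stress-inducible Hspa1a, Hspa1b and Hspb1 were also lower at day 1 but stood near the limit of detection. Other stress-inducible members, Dnajb1, Bag3 and Hsph1, went the other way by FPKM and were higher in every day 1 library. Of these, Bag3 was also near that limit, and Hsph1 did not pass the test below. For Dnajb1, the day 1 mean lay within the counting error of its day 0 value over all exons. The log2 fold changes that the authors deposited were -0.71 for Dnajb1, -0.93 for Bag3 and 0.0037 for Hsph1. Most subunits of the CCT chaperonin, Hsf1, Stip1, Ahsa1 and Dnajb6 were higher at day 1 in FPKM as deposited. With limma on log2(FPKM + 1) and a Benjamini-Hochberg adjusted p under 0.05, 14 of the 42 rows tested were higher (33.3%), 7 were lower (16.7%) and 21 had no call. Among all 13903 genes tested, 35.0% were higher and 19.0% lower, so the members' shares were close to the background. The median log2 change was 0.15 over the members and 0.59 over all genes tested. With the median change of all genes set to 0, 7 members were higher and 15 lower, so the split of members between higher and lower depends on the scaling. The second row of Hspa14 (ENSMUSG00000079615) was listed at 0.202, 0.173 and 0.284 FPKM at day 1 and at 0 at day 0 and was below the filter.

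**Figure D1:**
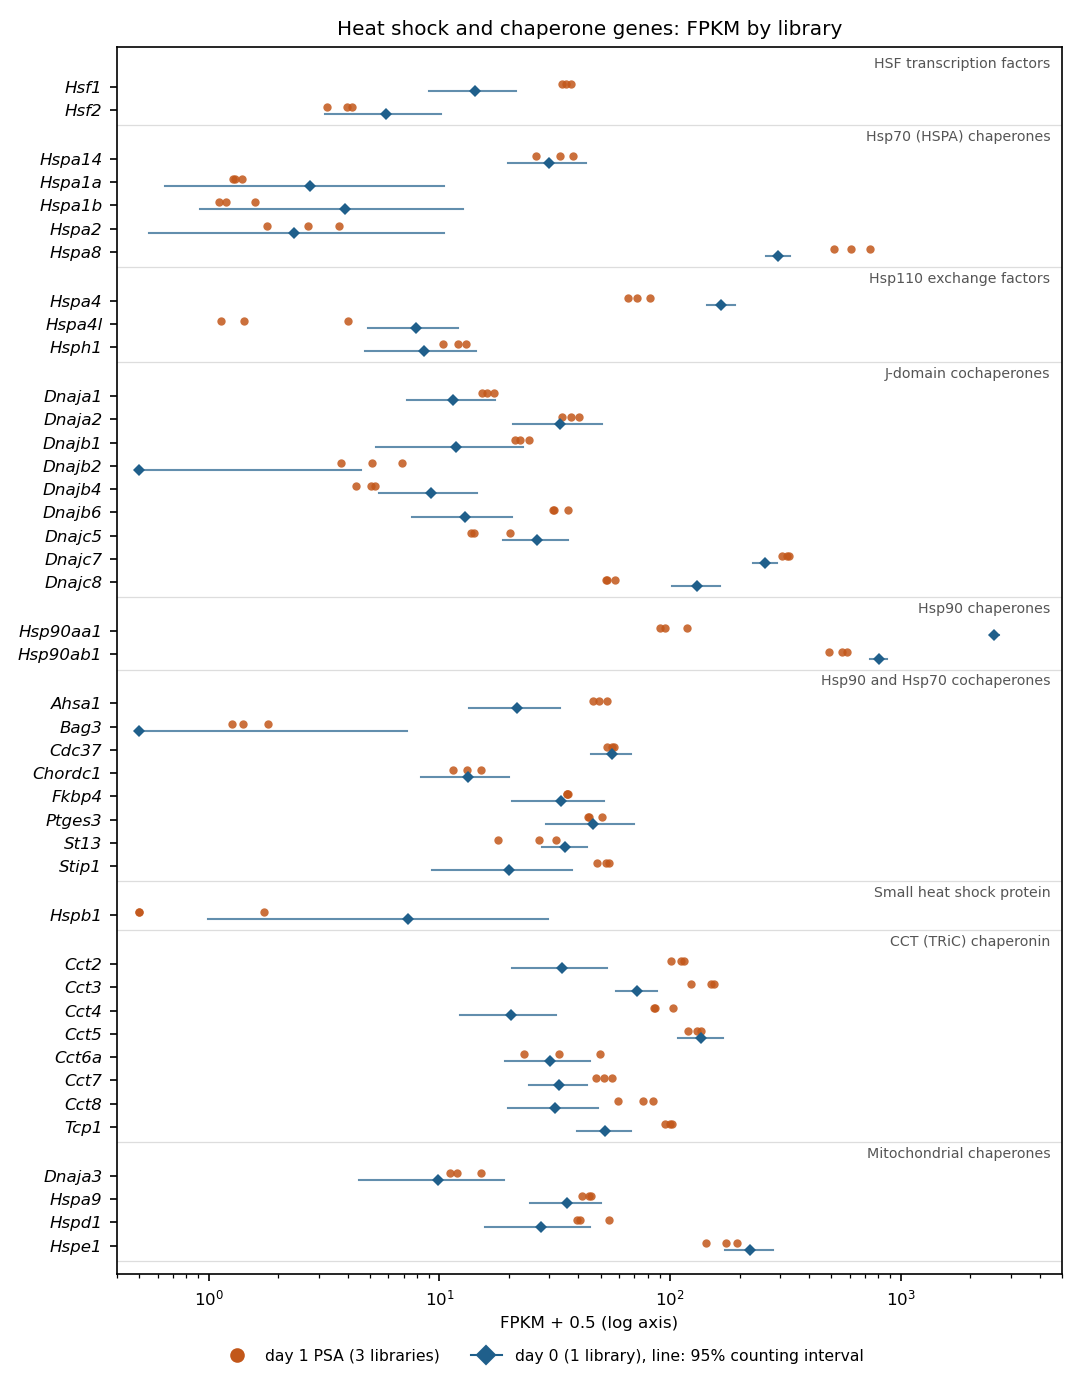
FPKM + 0.5 (log axis) of the 42 tested rows, ordered by role, with 1 point for each of the 3 day 1 PSA libraries and a diamond for the day 0 library, whose line is the 95% exact Poisson interval of its estimated fragments over all annotated exons. Hsp90aa1 lies at 90.2 to 118 FPKM at day 1 and at 2547 at day 0, while the day 0 lines of Hspa1a and Hspa1b cover all of their day 1 values.

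The deposited table gives a second measure of the same comparison, the authors' own log2 fold change and false discovery rate (FDR). By that measure 2 members were called at an FDR under 0.05, Hspa1b and Hsp90aa1, both lower, and none was called higher. Among the same 13903 genes the authors' deposited table calls 0.352% higher and 3.11% lower, against 4.76% of the members lower. At an unadjusted p under 0.05 the authors' deposited table has 0 members higher and 3 lower, the third being Dnajb4. Of the 40 members above 0 at day 0, 24 (60%) had the same sign in FPKM and in the authors' deposited table, against 77.1% of 9826 genes, and 14 were higher by FPKM but lower in the authors' deposited table. Of the 14 members called higher by limma, 6 had a log2 fold change below 0 there, and of the 7 called lower, Hspa4 had one above 0. The cause of this disagreement was not tested.

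**Figure D2:**
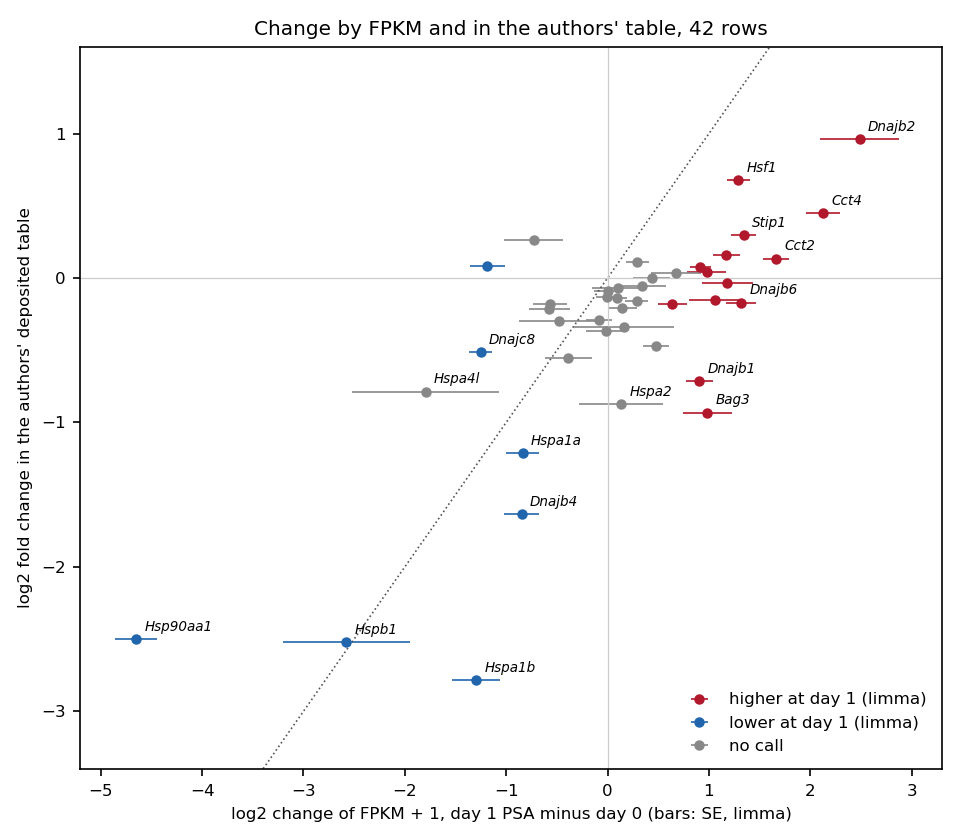
Log2 change of FPKM + 1, day 1 PSA minus day 0 (horizontal axis, bars are SE from limma), against the authors' deposited log2 fold change (vertical axis) for the 42 tested rows, with the line of equal change dotted. Hsp90aa1, Hspb1, Hspa1b, Hspa1a and Dnajb4 lie low on both axes, whereas the rows called higher by limma spread from -0.93 (Bag3) to 0.96 (Dnajb2) on the vertical axis.

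Hsf1, the transcription factor that turns on heat shock genes, had 36.6, 34.9 and 33.6 FPKM at day 1, against 13.7 FPKM at day 0. All 3 day 1 libraries were above the day 0 library, and the log2 change was 1.29 ± 0.11 (SE, limma adjusted p = 0.0061), against 0.68 in the authors' deposited table (FDR 0.85). At day 0 its level rested on about 20.9 fragments over all exons (95% interval 8.49 to 21.02 FPKM, counting error only) or 1.41 if all came from its shortest transcript (0.87 to 60.9 FPKM). Hsf2, a related factor that can pair with Hsf1, had 3.68, 3.48 and 2.77 FPKM at day 1, against 5.38 FPKM at day 0. Its day 0 value lay above all 3 day 1 values, but the difference missed the threshold (log2 change -0.57 ± 0.20, SE, limma adjusted p = 0.093) and was -0.22 in the authors' deposited table.

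Heat shock elements, the DNA motif that Hsf1 binds, were searched on both strands in RefSeq promoters (GRCm38.p6, from 250 bases before to 50 after a start site), which covered 34 of the 42 symbols. An element of 3 consecutive NGAAN units in alternating orientation lay in promoters of 5 of these 34 genes (14.7%), against 179 of 27025 genes (0.662%). An element of 2 such units (GAANNTTC or TTCNNGAA), which every longer element also holds, lay in 16 of 34 (47.1%), against 16.97% of all genes, and CCAAT or its reverse complement in 18 of 34 (52.9%), against 41.1%. The longer element was present in 1 of 11 members called higher, 0 of 6 called lower and 4 of 17 without a call, and the shorter in 3 of 11, 4 of 6 and 9 of 17. A match describes the letters in this window and is not a measured binding site. For each of the 5 members that hold a longer element, 1 match is shown with 8 flanking bases on each side and the match in capitals, because this is the motif of the pathway's own transcription factor.
Dnajb6 (chr5:29735852-29735864, + strand, called higher): agctccgaGAATCTTCCGGAAcgctagac
Hsph1 (chr5:149636288-149636300, - strand, no call): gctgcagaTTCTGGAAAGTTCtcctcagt
Hspe1 (chr1:55088059-55088071, + strand, no call): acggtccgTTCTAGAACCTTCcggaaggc
Hspd1 (chr1:55088059-55088071, - strand, no call): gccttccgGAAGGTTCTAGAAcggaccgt
Chordc1 (chr9:18292263-18292275, + strand, no call): tgcaaccgGAACGTTCGGGAAaattcctg
Hspe1 and Hspd1 are transcribed away from each other, and the matches shown are the same bases read on opposite strands. Counted from a RefSeq start site, the matches shown began at -46 in Dnajb6 (-127 from a second start site), 16 in Hsph1 (37 from a second), -89 in Hspe1, -139 in Hspd1 and -4 in Chordc1. The promoter of a second Hspd1 start site (chr1:55088194-55088493) held 0 elements of 3 units. Matches can overlap, so the capitals mark only part of a longer run of units where Hspe1 holds another match at -84, Hspd1 at -144 and Chordc1 at 2 and 7.

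Hsp70 members split by level. Hspa8, the Hsp70 made in all cells, stood at 512, 609 and 732 FPKM at day 1, against 293 FPKM at day 0, and lay above 98.97%, 99.1% and 99.2% of protein-coding genes at day 1 and 98.47% at day 0. Each day 1 library was above day 0, and limma called a rise (log2 change 1.06 ± 0.26, SE, adjusted p = 0.043), but the call ended without day 1 replicate 1 (adjusted p = 0.057), 2 (0.16) or 3 (0.073). It also ended with the median change set to 0 (log2 change 0.47) or after rescaling to protein-coding FPKM (adjusted p = 0.064), and the authors' deposited table has a log2 fold change of -0.15. Of its 50 nt stretches, 38.6% occur in other genes, most of all in Gm15459. The row listed under that symbol was also called higher by limma (log2 change 2.74 ± 0.67, SE). The part of such shared reads in the change of Hspa8 was not tested.

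Hspa1a, a heat-inducible Hsp70 (chr17:34969190-34972156), had 0.773, 0.898 and 0.80 FPKM at day 1, against 2.26 FPKM at day 0. Hspa1b, its neighbouring copy (chr17:34956436-34959238), had 0.607, 0.686 and 1.09 FPKM at day 1, against 3.38 FPKM at day 0. Both were lower in every day 1 library and were called lower by limma, with log2 changes of -0.84 ± 0.16 (SE, adjusted p = 0.026) for Hspa1a and -1.30 ± 0.24 (SE, adjusted p = 0.023) for Hspa1b. The day 0 values stood for about 1.43 fragments of Hspa1a (95% interval 0.147 to 9.92 FPKM) and 2.03 of Hspa1b (0.419 to 12.1 FPKM), and both intervals hold the day 1 means of 0.824 ± 0.066 and 0.794 ± 0.259 FPKM (SD, n = 3 each). Limma's call of Hspa1a ended without day 1 replicate 1 (adjusted p = 0.052), 2 (0.068) or 3 (0.058), and that of Hspa1b without replicate 1 (0.065) or 2 (0.089). In the authors' deposited table Hspa1b is called lower (log2 fold change -2.78, FDR 0.0058) and Hspa1a is not (-1.21, FDR 0.80).

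Reads of these 2 genes can be hard to assign. Of all 50 nt stretches of their transcripts, 60.4% of Hspa1a and 62.3% of Hspa1b occur in another gene, which is mainly the other copy. Their promoters are shown because they differ at 4 of 300 bases and hold the same shorter heat shock element, in capitals, at -104 from the start site.
Hspa1a (chr17:34972107-34972406, - strand): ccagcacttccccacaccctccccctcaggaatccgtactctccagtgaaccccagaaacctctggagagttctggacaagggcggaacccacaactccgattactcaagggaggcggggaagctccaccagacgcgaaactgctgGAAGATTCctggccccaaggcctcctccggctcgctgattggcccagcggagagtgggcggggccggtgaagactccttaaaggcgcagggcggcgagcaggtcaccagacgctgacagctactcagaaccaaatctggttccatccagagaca
Hspa1b (chr17:34959189-34959488, - strand): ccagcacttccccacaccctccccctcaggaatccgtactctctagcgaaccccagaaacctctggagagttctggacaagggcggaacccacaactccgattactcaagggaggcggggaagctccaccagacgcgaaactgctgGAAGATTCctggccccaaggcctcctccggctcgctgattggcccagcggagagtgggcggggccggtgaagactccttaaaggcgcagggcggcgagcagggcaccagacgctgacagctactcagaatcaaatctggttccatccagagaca
Hspa2, an Hsp70 best known from testis, had 3.16, 1.28 and 2.19 FPKM at day 1, against 1.85 FPKM at day 0, so the groups overlapped. Hspa14, an Hsp70 relative found on ribosomes (ENSMUSG00000051396, named Gm45902 in GENCODE M21), had 25.7, 37.5 and 32.9 FPKM at day 1, against 29.3 FPKM at day 0, with no call (limma adjusted p = 0.74).

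Exchange factors of the Hsp110 class, which release nucleotide from Hsp70, also differed among themselves. Hspa4 had 64.9, 81.2 and 71.3 FPKM at day 1, against 166 FPKM at day 0. It fell in limma (log2 change -1.19 ± 0.17, SE, adjusted p = 0.014), a call that ended without day 1 replicate 2 (adjusted p = 0.052) or 3 (0.066), but it stood at 0.082 in the authors' deposited table. Hspa4l had 0.628, 0.924 and 3.50 FPKM at day 1, against 7.38 FPKM at day 0. The third day 1 library was well above the other two, and limma's log2 change of -1.79 ± 0.73 (SE, adjusted p = 0.12) passed only without it (-2.24, adjusted p = 0.034). Hsph1, the heat-inducible Hsp110, had 9.91, 12.6 and 11.6 FPKM at day 1, against 8.10 FPKM at day 0, and did not pass (log2 change 0.44 ± 0.18, SE, limma adjusted p = 0.13).

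J-domain cochaperones, which hand clients to Hsp70, held 3 of 9 members called higher (33.3%) and 2 called lower (22.2%) by limma, near the 35.0% and 19.0% of all genes tested, with a median log2 change of 0.29 and of -0.21 in the authors' deposited table. Dnajb6, which keeps aggregation-prone proteins soluble, had 30.9, 30.6 and 35.7 FPKM at day 1, against 12.4 FPKM at day 0 (log2 change 1.32 ± 0.15, SE, limma adjusted p = 0.0091). Dnajb1, the heat-inducible partner of Hspa1a, had 20.7, 23.8 and 21.8 FPKM at day 1, against 11.3 FPKM at day 0 (log2 change 0.91 ± 0.14, SE, limma adjusted p = 0.015). For both, every day 1 library was above day 0, while both log2 fold changes were below 0 in the authors' deposited table, at -0.17 and -0.71. Dnajb2 was listed at 4.59, 3.25 and 6.404 FPKM at day 1 and at 0 at day 0, where its counting interval over all exons reached 4.05 FPKM, and limma called it higher (adjusted p = 0.017). Without day 1 replicate 1 the call of Dnajb2 ended (adjusted p = 0.074), and without replicate 2 those of Dnajb6 (0.054), Dnajb1 (0.066) and Dnajc8 (0.051), while Dnajb1's also ended without replicate 3 (0.059).

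Members of the class called lower were Dnajc8 and Dnajb4. Dnajc8, a J-domain protein linked to splicing, had 57.3, 52.1 and 53.0 FPKM at day 1, against 130 FPKM at day 0 (log2 change -1.25 ± 0.11, SE, limma adjusted p = 0.0066), and was -0.51 in the authors' deposited table. Its day 0 level stood for about 71.1 fragments over all exons and 12.6 at its shortest transcript, and the day 1 mean of 54.1 lay below both intervals. Dnajb4, a close relative of Dnajb1, had 3.84, 4.57 and 4.75 FPKM at day 1, against 8.66 FPKM at day 0 (log2 change -0.85 ± 0.18, SE, limma adjusted p = 0.030). The call of Dnajb4 ended without any 1 day 1 library (adjusted p of 0.058 to 0.11), and in the authors' deposited table it was -1.63 with an FDR of 0.0996. Dnaja1 had 14.8, 15.6 and 16.7 FPKM at day 1, against 10.97 FPKM at day 0, just outside the threshold (limma adjusted p = 0.053) and at -0.47 in the authors' deposited table. Dnaja2 (33.4, 36.8 and 39.7 FPKM at day 1, against 32.9 at day 0), Dnajc7 (306, 319 and 327, against 259) and Dnajc5 (13.2, 13.6 and 19.7, against 25.9) had no call.

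The 2 cytosolic Hsp90 genes gave the largest difference among the members. Hsp90aa1, the stress-inducible form (chr12:110690605-110702728), had 94.98, 90.2 and 118 FPKM at day 1, against 2547 FPKM at day 0. Every day 1 library was far below the day 0 value, and the mean of 101 ± 14.7 FPKM (SD, n = 3) was 25.2-fold lower. The log2 change was -4.65 ± 0.21 (SE, limma adjusted p = 0.0033), and the authors' deposited table also calls it lower, with a smaller log2 fold change of -2.50 (FDR 0.013). The limma call held without any 1 day 1 library and under every other limma setting tried. Its day 0 level stood for about 2144 fragments over all exons (95% interval 2440 to 2657 FPKM) and 177 at its shortest transcript of 325 nt (2186 to 2951 FPKM), so counting error is small beside the difference. In rank it lay above 95.1%, 94.96% and 96.6% of protein-coding genes at day 1 and above 99.7% at day 0. A share of 47.5% of its 50 nt stretches occurs in other genes, most of all the pseudogene Gm12346, which was listed at 0, 0 and 1.76 FPKM at day 1 and at 0 at day 0.

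Hsp90ab1, the Hsp90 made in all cells, had 489, 557 and 586 FPKM at day 1, against 802 FPKM at day 0. All 3 day 1 values were below day 0, but the difference missed the threshold (log2 change -0.56 ± 0.17, SE, limma adjusted p = 0.065) and was -0.18 in the authors' deposited table, while with the median change set to 0 limma called it lower (log2 change -1.16). Within a library, where no scaling between libraries enters, Hsp90aa1 over Hsp90ab1 was 0.194, 0.162 and 0.201 at day 1 and 3.17 at day 0. The ratio was thus 17.1 times as high at day 0 as the day 1 mean of 0.186 ± 0.021 (SD, n = 3), and the inducible form was the less abundant Hsp90 in all 3 day 1 libraries and the more abundant at day 0. Hsp90aa1 made up 3.19%, 2.81% and 3.45% of the members' summed FPKM at day 1 and 48.1% at day 0. The sum of all members was 2980, 3208 and 3414 FPKM at day 1 and 5298 at day 0, and without Hsp90aa1 it was 2885, 3117 and 3296 at day 1 and 2751 at day 0.

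**Figure D3:**
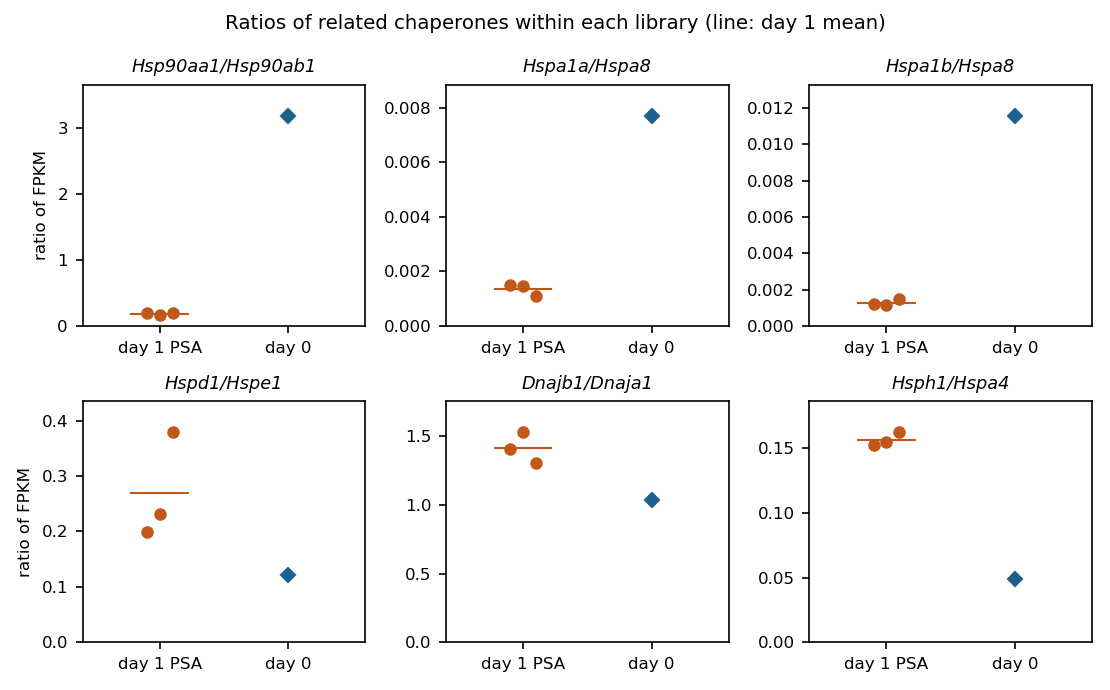
Ratios of FPKM of related members within each library, with 1 point per day 1 PSA library and their mean as a line on the left, and the day 0 library as a diamond on the right of each panel (linear axes from 0). Hsp90aa1/Hsp90ab1 is 0.162 to 0.201 at day 1 and 3.17 at day 0, and Hsph1/Hspa4 is 0.153 to 0.162 at day 1 and 0.0488 at day 0.

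Ratios of other related members went in both directions. Hspa1a over Hspa8 was 0.00151, 0.00147 and 0.00109 at day 1 and 0.00771 at day 0, and Hspa1b over Hspa8 was 0.00119, 0.00113 and 0.00149 at day 1 and 0.0116 at day 0, so both inducible genes were a smaller fraction of Hspa8 in every day 1 library. Hsph1 over Hspa4 was 0.153, 0.155 and 0.162 at day 1 and 0.0488 at day 0. Dnajb1 over Dnaja1 was 1.402, 1.52 and 1.31 at day 1 and 1.03 at day 0. These ratios are descriptions, with 1 day 0 library and no test, and those of Hspa1a and Hspa1b rest on 1.43 and 2.03 fragments at day 0. Dnajb1 and Hsph1 had about 7.77 and 12.6 fragments at day 0 over all exons. Their day 0 intervals (4.82 to 22.5 and 4.26 to 13.96 FPKM) held their day 1 means. The day 1 mean of Hspa4 (72.5 FPKM) lay below its day 0 interval over all exons (143 to 191 FPKM).

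Cochaperones of Hsp90 and Hsp70 held 3 members called higher of 8 (37.5%) and none lower in limma. Among all genes tested, 35.0% were higher and 19.0% lower, so the share higher was near the background. None of the 8 was lower at an unadjusted p under 0.05 either. With the median change of all genes set to 0, 2 were higher and 3 lower. For this class the authors' deposited table calls none in either direction at an FDR under 0.05 or an unadjusted p under 0.05. Stip1, which links Hsp70 to Hsp90, had 52.0, 47.5 and 53.6 FPKM at day 1, against 19.5 FPKM at day 0 (log2 change 1.34 ± 0.12, SE, limma adjusted p = 0.0068; 0.30 in the authors' deposited table). Ahsa1, which speeds up the ATPase of Hsp90, had 52.8, 48.7 and 45.6 FPKM at day 1, against 21.2 FPKM at day 0 (log2 change 1.17 ± 0.13, SE, limma adjusted p = 0.0094; 0.16 in the authors' deposited table). Both were higher in every day 1 library, and the day 1 mean of Stip1 lay above its day 0 interval of 8.80 to 37.2 FPKM. That interval rested on about 8.79 fragments. The day 1 mean of Ahsa1 (49.1 FPKM) lay above its day 0 interval over all exons (12.9 to 32.8 FPKM). It lay inside the interval at the shortest transcript (4.92 to 58.8 FPKM). The call of Ahsa1 ended without day 1 replicate 2 (adjusted p = 0.060), and that of Stip1 held without any 1 library.

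Bag3, a stress-inducible exchange factor of Hsp70, was listed at 0.766, 0.904 and 1.31 FPKM at day 1 and at 0 at day 0, where up to 6.72 FPKM lay within counting error. Limma called Bag3 higher (adjusted p = 0.043), a call that ended without day 1 replicate 1 (0.066) or 2 (0.11), while the authors' deposited table has -0.93. Limma called no other cochaperone. Cdc37, which brings kinases to Hsp90, had 56.8, 55.7 and 52.6 FPKM at day 1, against 55.3 FPKM at day 0. Fkbp4, a partner of steroid receptors, had 35.7, 35.1 and 35.3 FPKM at day 1, against 33.1 FPKM at day 0. Ptges3, the cochaperone p23, had 43.5, 50.1 and 44.1 FPKM at day 1, against 45.6 FPKM at day 0. Limma's log2 changes with SE were -0.01 ± 0.11 for Cdc37, 0.09 ± 0.10 for Fkbp4 and 0.01 ± 0.14 for Ptges3. Chordc1 (14.6, 10.9 and 12.7 FPKM at day 1, against 12.8 at day 0) and St13 (17.5, 26.5 and 31.7, against 34.6) had no call either.

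Hspb1, the small heat shock protein Hsp27, was listed at 0, 0 and 1.24 FPKM at day 1 and at 6.82 at day 0. Its day 0 value stood for about 1.504 fragments (95% interval 0.493 to 29.1 FPKM). Limma called it lower (log2 change -2.58 ± 0.63, SE, adjusted p = 0.042), but the call ended without day 1 replicate 1 (0.12) or 2 (0.13), and the authors' deposited table has -2.52 with an FDR of 0.65. Of its 50 nt stretches, 48.8% occur in 1 other gene, the pseudogene Hsp25-ps1.

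The CCT chaperonin, a ring of 8 different subunits, was the role with the most members called higher, 6 of 8 (75%). These were Cct2, Cct3, Cct4, Cct7, Cct8 and Tcp1, and none was lower, also at an unadjusted p under 0.05. Among all genes tested, 35.0% were higher and 19.0% lower. With the median change of all genes set to 0, there were 2 higher and 1 lower. The median log2 change of the 8 was 0.95, against 0.59 over all genes tested. In the authors' deposited table it was 0.0045, and none of the 8 is called there at an FDR or an unadjusted p under 0.05. Cct4 had 84.4, 85.8 and 103 FPKM at day 1, against 19.985 FPKM at day 0 (log2 change 2.13 ± 0.17, SE, limma adjusted p = 0.0055; 0.45 in the authors' deposited table). Cct2 had 101, 111 and 115 FPKM at day 1, against 33.6 FPKM at day 0 (log2 change 1.66 ± 0.13, SE, limma adjusted p = 0.0053; 0.13 in the authors' deposited table). These 2 calls held without any 1 day 1 library and under every other limma setting tried, and the day 1 means lay above the day 0 counting intervals even at the shortest transcript (up to 72.4 FPKM for Cct4 and 87.3 for Cct2).

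Calls of the other 4 subunits were less firm. Tcp1 had 101, 94.96 and 99.5 FPKM at day 1, against 51.9 FPKM at day 0 (log2 change 0.91 ± 0.10, SE, limma adjusted p = 0.0093). Cct8 had 59.2, 76.1 and 84.1 FPKM at day 1, against 31.3 FPKM at day 0 (log2 change 1.18 ± 0.25, SE, limma adjusted p = 0.031). Cct3 had 151, 155 and 122 FPKM at day 1, against 71.5 FPKM at day 0 (log2 change 0.98 ± 0.19, SE, limma adjusted p = 0.027). Each of them was above day 0 in all 3 day 1 libraries. Cct7 had 55.7, 47.0 and 51.0 FPKM at day 1, against 32.5 FPKM at day 0 (log2 change 0.64 ± 0.14, SE, limma adjusted p = 0.036). All 4 calls ended with the median change set to 0, at log2 changes of 0.04 (Cct7), 0.32 (Tcp1), 0.38 (Cct3) and 0.59 (Cct8). Leaving out day 1 replicate 1 ended the calls of Cct3 (adjusted p = 0.091) and Cct7 (0.068), leaving out replicate 2 those of Cct3 (0.10), Cct7 (0.089), Cct8 (0.12) and Tcp1 (0.058), and leaving out replicate 3 those of Cct7 (0.11) and Cct8 (0.084).

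Cct5 and Cct6a were the subunits without a call. Cct5 had 119, 130 and 135 FPKM at day 1, against 136 FPKM at day 0 (log2 change -0.08 ± 0.13, SE, limma adjusted p = 0.62), and was lower with the median change set to 0 (-0.68, adjusted p = 0.026). Cct6a had 22.8, 32.5 and 49.4 FPKM at day 1, against 29.6 FPKM at day 0, so its day 1 libraries lay on both sides of day 0. Subunits assemble in equal numbers, and their FPKM, which is per length, had a coefficient of variation over the 8 of 46.4%, 44.6% and 33.2% at day 1, against 74.6% at day 0. The highest over the lowest subunit was 6.59, 4.77 and 2.73 at day 1 and 6.79 at day 0, so by that measure the first day 1 library was nearly as spread as day 0. The day 0 spread includes the counting error of 17.98 to 97.5 estimated fragments per subunit. Their sum was 694, 733 and 759 FPKM at day 1 and 406 at day 0.

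**Figure D4:**
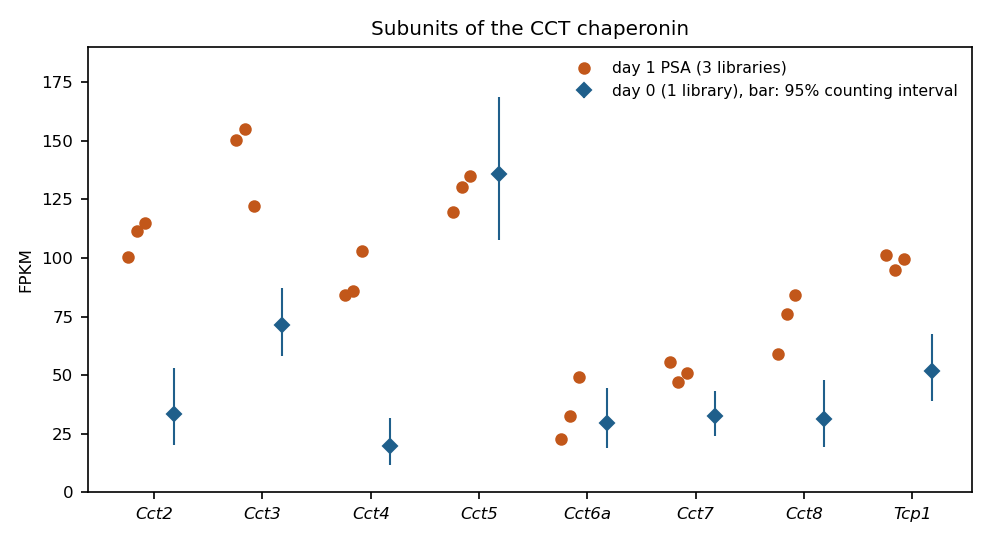
FPKM of the 8 CCT subunits in the 3 day 1 PSA libraries (points, left) and the day 0 library (diamonds, right, with the 95% exact Poisson interval over all annotated exons). In 6 subunits all day 1 points lie above the day 0 diamond; Cct5 (119 to 135 at day 1, 136 at day 0) and Cct6a (22.8 to 49.4 at day 1, 29.6 at day 0) do not.

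None of the 4 mitochondrial chaperones was called by limma or in the authors' deposited table, and none had an unadjusted p under 0.05 in either. Hspd1 (Hsp60) and Hspe1 (Hsp10) form 1 chaperonin and share the promoter region shown above. Hspd1 had 38.8, 40.4 and 53.9 FPKM at day 1, against 27.1 FPKM at day 0 (log2 change 0.68 ± 0.25, SE, limma adjusted p = 0.0996). Hspe1 had 195, 174 and 142 FPKM at day 1, against 221 FPKM at day 0 (log2 change -0.39 ± 0.23, SE, limma adjusted p = 0.24). Of the 50 nt stretches of Hspd1, 39.7% occur in other genes, most of all in the pseudogene Hspd1-ps3, listed at 0.347, 0 and 0 FPKM at day 1 and at 0 at day 0. Every day 1 library was above day 0 for Hspd1 and below it for Hspe1, and Hspd1 over Hspe1 was 0.199, 0.231 and 0.378 at day 1, against 0.122 at day 0. Hspa9, the mitochondrial Hsp70, had 40.8, 43.9 and 44.8 FPKM at day 1, against 35.2 FPKM at day 0, and its J-domain partner Dnaja3 had 10.6, 11.5 and 14.6 FPKM at day 1, against 9.33 FPKM at day 0.

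Among 83 tested genes of 8 related lists outside the members, 33 were higher (39.8%) and 8 lower (9.64%) in limma, against 35.0% and 19.0% of all genes tested, with a median log2 change of 0.51 (0.033 in the authors' deposited table, which calls 1 of them, Dnajb9, lower). Of these genes 10 were listed at 0 at day 0. Hsp90 cochaperones and client factors were higher in 10 and lower in 1 of 19, with Ppid, a cyclophilin that binds Hsp90, at 26.0, 22.8 and 19.8 FPKM at day 1 and listed at 0 at day 0, and Ttc5 at 22.1, 23.1 and 21.6 and listed at 0. Mitochondrial chaperones and proteases were higher in 6 of 10, and Trap1, the mitochondrial Hsp90, had 80.4, 67.5 and 57.8 FPKM at day 1, against 2.10 FPKM at day 0 (log2 change 4.47, against 0.60 in the authors' deposited table), with Grpel1 at 13.6, 12.1 and 10.9, against 2.67. Of 13 prefoldin and tubulin folding genes, which work with CCT, 5 were higher, with Tbce at 53.2, 58.0 and 58.0 FPKM at day 1, against 5.64 at day 0, and Vbp1 at 24.0, 24.2 and 30.5, against 2.97. Trap1, Grpel1, Tbce and Vbp1 were all below the day 0 floor of 7.01 FPKM for a 2 kb transcript. The mitochondrial list and the prefoldin and tubulin list had no member lower, also at an unadjusted p under 0.05.

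Other J-domain proteins were higher in 4 (33.3%) and lower in 2 (16.7%) of 12, near the 35.0% and 19.0% of all genes tested. Dnajb12 was at 10.9, 16.8 and 18.9 FPKM at day 1, against 3.08 at day 0. Dnajc24 was at 3.19, 5.18 and 5.75 at day 1 and listed at 0 at day 0. Hsp70 relatives and exchange factors were higher in 2 of 9, Hspbp1 (17.6, 18.6 and 15.1 FPKM at day 1) and Bag4 (2.19, 2.59 and 2.95), both listed at 0 at day 0, and none was lower, also at an unadjusted p under 0.05. Of 3 HSF regulators 2 were higher and 1 lower, among them Hsf4 (1.86, 1.21 and 1.53 FPKM at day 1, listed at 0 at day 0) and Hsf2bp (listed at 0 in all day 1 libraries, 3.54 at day 0). Small heat shock proteins outside the members had 1 higher, Hspb6 (8.84, 4.87 and 6.56 FPKM at day 1, listed at 0 at day 0), and 1 lower, Cryaa (0.607, 0 and 0, against 4.30), of 3. At day 0, Dnajb12, Hsf2bp and Cryaa were all below the floor of 7.01 FPKM for a 2 kb transcript. Chaperones of the endoplasmic reticulum were higher in 3 and lower in 3 of 14 (21.4% each), with a median log2 change of -0.04. Dnajb9 had 4.83, 6.02 and 8.04 FPKM at day 1, against 20.2 FPKM at day 0 (log2 change -1.57, and -2.59 in the authors' deposited table). Sil1 had 6.32, 6.47 and 5.06 FPKM at day 1 and was listed at 0 at day 0.

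Precision was set mainly by the day 0 library. The members had a median of 20.6 estimated fragments there, 6 had fewer than 3, and 2 were listed at 0, while the median coefficient of variation between day 1 libraries was 11.3%. Day 0 lay below the range of the 3 day 1 libraries for 22 members, above it for 14 and inside it for 6. Of the 21 members called, the day 1 mean lay outside the day 0 counting interval for 17 when fragments were counted over all exons and for 7 at the shortest transcript, which were Hsp90aa1, Hspa8, Hspa4, Dnajc8, Stip1, Cct2 and Cct4. Calls of 5 members held without any 1 day 1 library, those of Hsp90aa1, Hsf1, Stip1, Cct2 and Cct4, and these same 5 held under every other limma setting tried.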

How the data were processed

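Per the labels' protocols, RNA was extracted with Qiagen RNeasy, sequencing was on an Illumina HiSeq, and reads under 10 nt after adaptor trimming were dropped. The submitters' processing notes list TopHat 1.4.1, Cufflinks 2.2.1, Cuffdiff and cutadapt, with build GRCm38.p6. For annotation release, strand handling and multiply mapping reads, the setting was not given in the sources used here. Reads near the limit of 10 nt, if any were kept, can match several genes. FPKM per library were made by the authors with Cufflinks, per the labels' protocols. The authors also deposited, per the file headers, a log2 fold change (day 1 over day 0), mean log2 abundance, p-value and false discovery rate (FDR); the headers name no test.

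Here limma 3.58.1 (trend, R 4.3.3) was run on log2(FPKM + 1) of 13903 genes that reached an FPKM of 1 in some library. P-values were Benjamini-Hochberg adjusted and the threshold was 0.05. The fit was run on simulated data in which every library, day 0 too, was drawn with the day 1 spread. That run could not check the effect of the shallow day 0 library. A log2 change on this scale understates that of low genes. The spread of the lone day 0 library was taken to equal that of the 3 day 1 libraries (2 residual and 1.27 prior degrees of freedom), and its larger counting error is not in the SE. Depth came from the step of FPKM times length of 1221 single-transcript genes, where 61.4% to 68.7% of low values lay within 0.1 of a whole fragment. Intervals are exact Poisson at 95%, for counting error only. A value of 0 can be a failed estimate and is written as listed at 0.

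Lengths, coordinates and 50 nt transcript windows came from GENCODE M21 (GRCm38; 16232 of 17519 gene IDs matched) and promoters from RefSeq (GRCm38.p6). Hsf1, Cct4, Dnajc5, Hsp90aa1, Hsp90ab1, Hspa9, St13 and Hspa8 had no promoter in that table. The named members were those called in the same direction by both measures, the 3 largest rises and falls, and fixed pairs and families; other called members, and the Hspa1a and Hspa1b promoters, were added after their values were seen. In related lists the 2 largest called changes were named. Members and lists were chosen with earlier results of these data known. Alternatives were another pseudocount, filter or scaling, no trend, and leaving out each day 1 library. A fit without 1 day 1 library had 1 residual degree of freedom in place of 2. A call could therefore end there without a smaller change. Without replicate 1, the log2 change of Hspa8 was 1.19, against 1.06 in the main fit.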

Additional observations from a re-analysis of the deposited data

How the results depend on the processing

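Over 30 members and 320 fits, 263 kept direction and side of the threshold, 46 lost a call, 5 gained one and 6 reversed; the cause was not tested. None of the 6 reversals involved a called value: Cct5 was 0.079 after rescaling to protein-coding FPKM, Cct6a -0.43 with the median change set to 0 and -0.12 without day 1 replicate 3 (up to 0.42 without replicate 1), Dnaja1 -0.11 and Hspa2 -0.46 with the median set to 0, and Hspa2 -0.076 without day 1 replicate 1 (up to 0.36 without replicate 2). Rescaling to protein-coding FPKM ended the calls of Hspa1a (limma adjusted p = 0.052), Cct8 (0.053), Hspb1 (0.056), Bag3 (0.063) and Dnajb4 (0.11), setting the median to 0 those of Dnajb1 (0.15) and Bag3 (0.26), a pseudocount of 0.5 that of Hspb1 (0.064) and one of 5 that of Bag3 (0.072), beside those given in the text. Among these 30 members, setting the median to 0 added calls, all lower, of Hsf2 (log2 change -1.17) and Hspe1 (-0.98), beside Cct5 and Hsp90ab1. Members higher numbered 14, against 7 with the median set to 0, 0 in the authors' deposited table (also 0 at an unadjusted p under 0.05) and 5 to 10 without 1 day 1 library, fewest without replicate 2. Members lower numbered 7, against 4 at a mean FPKM of at least 5 (fewer genes tested), 15 with the median set to 0, 4 after rescaling, 2 in the authors' deposited table and 1 to 6 without 1 day 1 library. Genes higher numbered 4869, against 2834 without genes listed at 0 at day 0, 3034 with the median set to 0, 49 in the authors' deposited table and 2317 to 3875 without 1 day 1 library. Genes lower numbered 2640, against 1612 at a mean FPKM of at least 5, 443 in all rows of the authors' deposited table (433 among the 13903 genes) and 1317 to 2012 without 1 day 1 library. The authors' deposited table as an alternative was chosen after seeing the data. No paired analysis was possible because day 0 has 1 library. The shallow day 0 library limits all low members, above all Hspa1a, Hspa1b, Hspb1 and Bag3.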
